A study of Mus musculus with 8 samples.

Results

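The 6 genes described here belong to enzyme families with members that make or open fatty acid epoxides. They are the monooxygenases Cyp2j5, Cyp2j6 and Cyp2j9 and the epoxide hydrolases Ephx1, Ephx2 and Ephx3. They were taken by gene symbol from the annotation of the array. Each of the 6 had exactly 1 transcript cluster, which carried no other symbol, among 22180 named genes and 41345 clusters. Their expression was measured in AML12 cells, a line of mouse hepatocytes, on Affymetrix mouse gene arrays. One group of 4 arrays came from cells that stably expressed Zfp125, a zinc finger protein, and the other 4 from cells with the empty vector (EV). Both lines had been selected with G418 and were kept in control medium; no age, time point or promoter of the vector was given in the labels. The labels do not say whether the arrays of a group came from separate cultures, so the spread between them, and every p-value, may be technical. Zfp125 had 0 clusters under its own symbol here, so the labels could not be checked against the expressed gene.

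Arachidonic acid and related fatty acids are oxidised along several branches, of which cytochrome P450 enzymes form one. Some enzymes of the Cyp2j and Cyp2c subfamilies, though not all, add an oxygen atom across a double bond. They give epoxyeicosatrienoic acids, lipid mediators that act on vessels, kidney and inflammatory cells. Soluble epoxide hydrolase, the product of Ephx2, adds water to these epoxides and turns them into diols that are less active. Ephx1 encodes the microsomal hydrolase, which is abundant in liver and also opens epoxides of drugs and polycyclic hydrocarbons. Ephx3 encodes a further membrane hydrolase that acts on fatty acid epoxides and is best known from skin.

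In Zfp125 cells, Cyp2j5 and Cyp2j6 were higher and Ephx2 was lower than in EV cells, and no value of one group overlapped with the other for these 3 genes. Cyp2j9, Ephx1 and Ephx3 differed by less than 0.2 on the log2 scale, and their groups overlapped. Of the 6 genes, 2 were called higher and 1 lower at an adjusted p under 0.05 in a fit of all genes with limma, a linear model that moderates each gene's variance. In that fit 1.08% of all genes were called, 0.446% higher and 0.636% lower. Groups that did not overlap were seen for 7.29% of all genes, 3.71% higher and 3.58% lower. The 6 genes were chosen with these differences known, so their values are a description and carry no test. All values are on the log2 scale, differences are Zfp125 minus EV with the standard error of the fit, and means have an SD over 4 arrays.

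**Figure D1:**
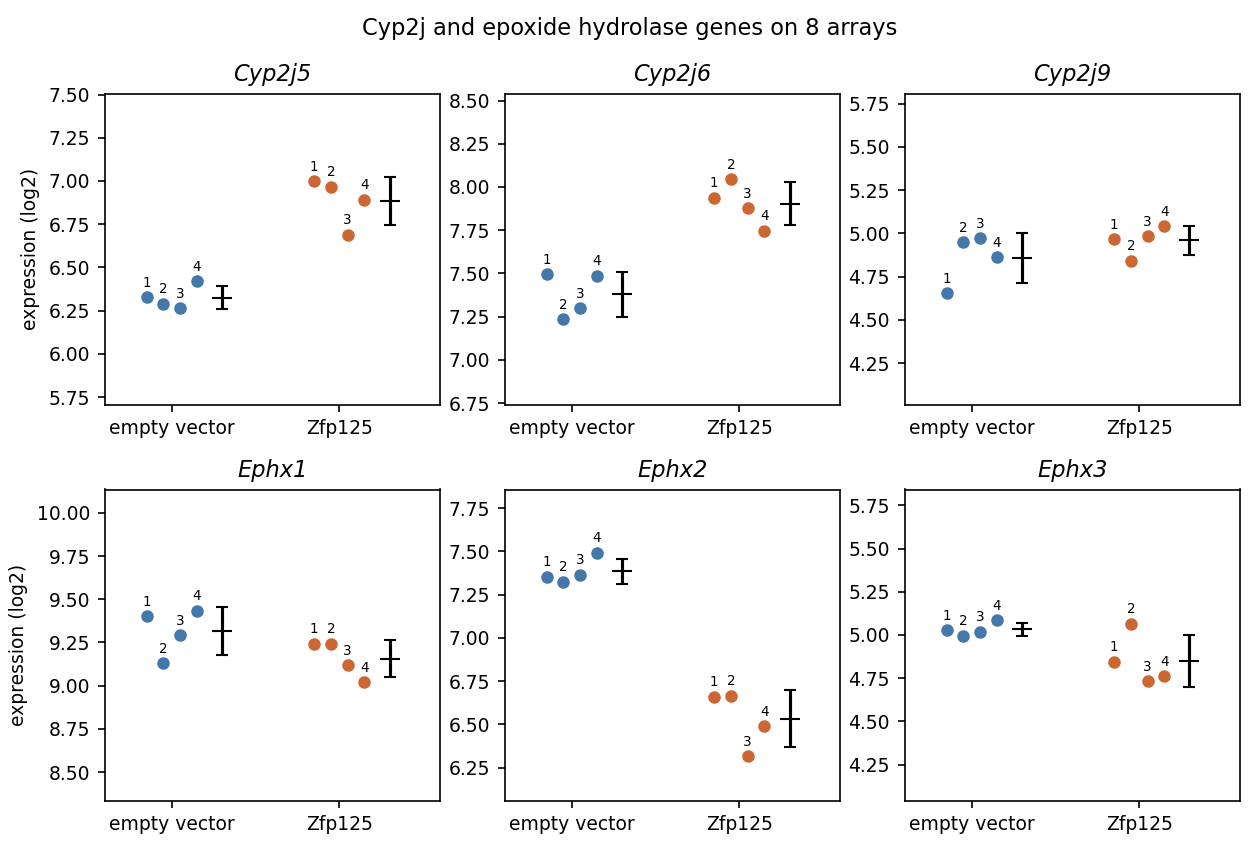
Expression of the 6 genes on each array. The vertical axes are log2 expression and each spans 1.8 log2 units, points are single arrays with their replicate number, and the bar beside each group is the mean with its SD (n = 4). Cyp2j5 and Cyp2j6 lie higher and Ephx2 lower on every Zfp125 array, while the groups of Cyp2j9, Ephx1 and Ephx3 overlap.

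Cyp2j5, an epoxygenase known from liver and kidney, read 6.33, 6.29, 6.27 and 6.42 on EV arrays 1 to 4 and 6.997, 6.97, 6.69 and 6.89 on Zfp125 arrays 1 to 4. The lowest Zfp125 array, replicate 3, was 0.269 above the highest EV array, replicate 4. The means were 6.33 ± 0.07 and 6.89 ± 0.14, a difference of 0.56 ± 0.09 or a 1.47-fold higher level. Among all genes 57 had a larger positive difference.

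Cyp2j6, a relative in the same subfamily, read 7.49, 7.24, 7.30 and 7.49 in EV cells and 7.94, 8.05, 7.88 and 7.75 in Zfp125 cells. Here the lowest Zfp125 array was replicate 4, which stood 0.253 above the highest EV array. The means were 7.38 ± 0.13 and 7.90 ± 0.12, a difference of 0.52 ± 0.10 or a 1.44-fold higher level, and 75 genes had a larger positive difference. The size of the difference was thus close to that of Cyp2j5, but the EV arrays were spread over 0.259 against 0.155 for Cyp2j5. Its call ended when EV replicate 2 or 3 or Zfp125 replicate 1, 2 or 3 was left out, with differences of 0.48 to 0.58 over all 8 omissions. The call of Cyp2j5 ended without Zfp125 replicate 1, with differences of 0.52 to 0.63.

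Cyp2j9, which lies between the other two on the chromosome, read 4.65, 4.95, 4.97 and 4.86 in EV cells and 4.97, 4.84, 4.98 and 5.04 in Zfp125 cells. EV replicate 1 was the lowest of the 8 arrays, and the other 3 EV arrays lay among those of Zfp125 cells. The means were 4.86 ± 0.14 and 4.96 ± 0.08, a difference of 0.10 ± 0.10 with a 95% interval of -0.11 to 0.31. Without EV replicate 1 it was 0.03, the lowest of the 8 omissions, and the highest was 0.14. Over all arrays its 95% interval ended at 0.309. The intervals were 0.356 to 0.765 for Cyp2j5 and 0.308 to 0.739 for Cyp2j6, so those of Cyp2j9 and Cyp2j6 overlapped only at their ends. Such an overlap does not say whether the differences are alike. The differences of Cyp2j9 were not compared with theirs in a test, because all 3 were chosen from the same comparison.

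The 3 genes are neighbours on chromosome 4, transcribed from the same strand, and 2 of them were higher, so the sequence just before each start is shown for comparison. These are the 250 bases upstream of the start, 5′ to 3′ on the minus strand, from RefSeq on GRCm38.p6, at chr4:96664120-96664369 for Cyp2j5, chr4:96553652-96553901 for Cyp2j6 and chr4:96591486-96591735 for Cyp2j9. Capitals mark matches on either strand to short motifs named next.
Cyp2j5: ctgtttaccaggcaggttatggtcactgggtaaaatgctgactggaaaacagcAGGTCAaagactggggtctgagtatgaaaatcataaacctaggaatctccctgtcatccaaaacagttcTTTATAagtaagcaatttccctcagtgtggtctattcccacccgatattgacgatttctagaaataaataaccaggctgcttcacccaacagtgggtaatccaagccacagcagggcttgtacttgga
Cyp2j6: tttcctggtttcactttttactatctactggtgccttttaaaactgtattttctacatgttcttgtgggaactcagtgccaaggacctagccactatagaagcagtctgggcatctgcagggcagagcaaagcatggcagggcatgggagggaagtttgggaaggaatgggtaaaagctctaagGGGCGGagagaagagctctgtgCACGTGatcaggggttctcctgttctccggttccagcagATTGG
Cyp2j9: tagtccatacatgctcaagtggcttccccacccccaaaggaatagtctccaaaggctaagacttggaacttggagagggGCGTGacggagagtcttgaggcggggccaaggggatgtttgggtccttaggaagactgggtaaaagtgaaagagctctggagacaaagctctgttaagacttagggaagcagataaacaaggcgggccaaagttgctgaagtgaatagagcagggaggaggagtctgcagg

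In the Cyp2j5 sequence the capitals are AGGTCA, the hexamer bound by many nuclear receptors, from 197 to 192 bases before the start, and the TATAAA letters on the opposite strand from 128 to 123. The hexamer occurred in 14% and TATAAA in 12.4% of the 32851 promoter windows of the same length. In the Cyp2j6 sequence they are the GC box GGGCGG (66 to 61 bases before the start), CACGTG, the E box read by SREBP and USF factors (44 to 39), and CCAAT on the opposite strand (5 to 1). These occurred in 32.7%, 6.02% and 33.8% of all windows. In the Cyp2j9 sequence GCGTG, the core of the aryl hydrocarbon response element, lay 171 to 167 bases before the start, as in 28.2% of windows somewhere in their length. None of the 3 windows held TGACNNNGC, the core of the antioxidant response element (10.2% of windows), or a pair of AGGTCA hexamers in a row with 1 base between, the PPAR response element form (0.0335%). The 3 windows thus had no motif of this set in common. A match of letters is a description, and its part in the expression differences was not tested. GC content was 44%, 49.6% and 52% in the windows of Cyp2j5, Cyp2j6 and Cyp2j9.

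Ephx2 had the largest difference of the 6 genes. It read 7.35, 7.33, 7.37 and 7.49 on EV arrays 1 to 4 and 6.66, 6.66, 6.32 and 6.49 on the Zfp125 arrays. The highest Zfp125 array was 0.661 below the lowest EV array, a gap wider than the spread within either group (0.168 in EV and 0.349 in Zfp125 cells). The means were 7.38 ± 0.07 and 6.53 ± 0.17, a difference of -0.85 ± 0.10 or a 1.81-fold lower level, and 40 genes had a larger negative difference. The difference stayed between -0.90 and -0.78 when any 1 array was left out, and the call held in all 8 omissions. It ended without moderation of the variance, as did those of Cyp2j5 and Cyp2j6, a setting in which 26 genes were called in all.

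Ephx1 read 9.40, 9.13, 9.29 and 9.43 in EV cells and 9.24, 9.24, 9.12 and 9.02 in Zfp125 cells. EV replicate 2 lay among the Zfp125 arrays, and the other 3 EV arrays were above all of them. The means were 9.31 ± 0.14 and 9.16 ± 0.11, a difference of -0.16 ± 0.10 with a 95% interval of -0.37 to 0.05. Leaving out any 1 array kept the sign, with values from -0.22 to -0.11.

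Ephx3 read 5.03, 4.995, 5.02 and 5.08 in EV cells, the narrowest group of all 6 genes with a range of 0.0888, and 4.84, 5.06, 4.73 and 4.76 in Zfp125 cells. Zfp125 replicate 2 fell among the EV arrays and the other 3 lay below them. The means were 5.03 ± 0.04 and 4.85 ± 0.15, a difference of -0.18 ± 0.09 with a 95% interval of -0.39 to 0.02. With 1 array left out it lay between -0.25, without Zfp125 replicate 2, and -0.14, without Zfp125 replicate 3. The hydrolase differences were thus all negative, at -0.16, -0.85 and -0.18, but only that of Ephx2 was called.

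**Figure D2:**
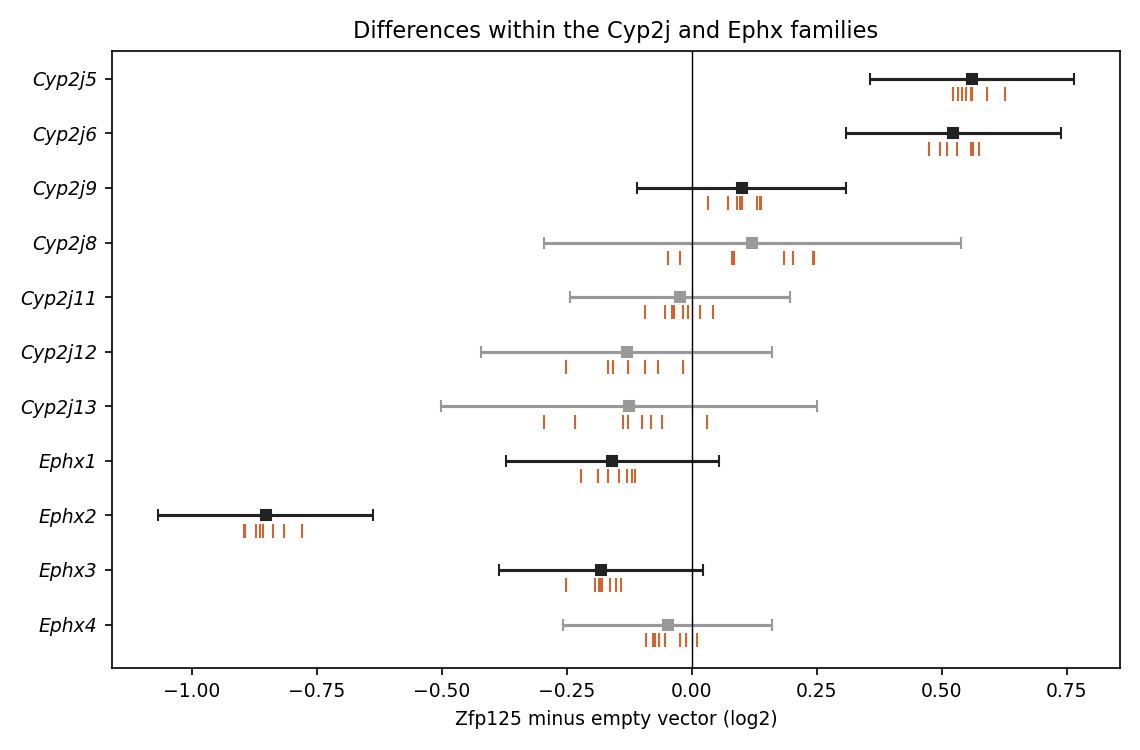
Differences between Zfp125 and EV cells within the Cyp2j and Ephx families. The horizontal axis is Zfp125 minus EV on the log2 scale, squares are the fit's estimates with 95% intervals, black for the 6 genes described and grey for their relatives, and orange ticks are the values with 1 array left out. Cyp2j5 and Cyp2j6 lie to the right of 0 and Ephx2 to the left under every omission.

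The 3 genes called differed in how they varied among the Zfp125 arrays. Relative to the EV mean, Zfp125 replicates 1 to 4 stood 0.67, 0.64, 0.36 and 0.57 higher for Cyp2j5 and 0.56, 0.67, 0.50 and 0.37 higher for Cyp2j6. For Ephx2 they stood at -0.73, -0.72, -1.07 and -0.89. Replicate 3 therefore had the smallest departure for Cyp2j5 and the largest for Ephx2, and it was also the lowest array for Ephx3. When Ephx2 was subtracted from Cyp2j5 on each array and the EV mean of that quantity set to 0, the Zfp125 arrays stood at 1.40, 1.36, 1.43 and 1.46, with an SD of 0.04, and the EV arrays between -0.04 and 0.03. The same quantity for Cyp2j6 was 1.28, 1.39, 1.57 and 1.26 on the Zfp125 arrays, with a mean of 1.38 ± 0.14, and between -0.09 and 0.15 on the EV arrays. The genes were chosen with their opposite differences known, so the separation of the groups in these values follows from that choice and is no test. Nor do the values say anything of the amount of one mRNA against the other.

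Likeness of pattern was measured as the root mean square distance between log2 profiles over the 8 arrays, each gene centred on its own mean. This centring keeps the difference between the groups, so the nearest genes are largely those with a similar difference. Those named next had 0.53, 0.49 and 0.59 for Cyp2j5 and 0.48, 0.49 and 0.51 for Cyp2j6. Nearness is therefore a description and no separate sign of shared expression. From Cyp2j5, the nearest genes were Snord82 (0.071), Snord22 (0.075) and Scarna10 (0.096), which encode small nucleolar and Cajal body RNAs, and Cyp2j6 was 11th at 0.108. From Cyp2j6, the nearest were Pkhd1, which encodes fibrocystin of the primary cilium, at 0.056, App, the amyloid precursor protein gene, at 0.063 and Slc16a12, a monocarboxylate transporter family gene, at 0.066, and Cyp2j5 was 46th. From Ephx2, the nearest were the sulfotransferase Sult1a1 at 0.121, the AMP deaminase Ampd3 at 0.126 and Hsd17b13, a lipid droplet enzyme of hepatocytes, at 0.131. Sult1a1 had means of 9.85 ± 0.11 and 8.83 ± 0.20, Ampd3 of 7.98 ± 0.11 and 7.18 ± 0.07, and Hsd17b13 of 8.77 ± 0.10 and 7.88 ± 0.14 in EV and Zfp125 cells.

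The relatives outside the 6 genes had small differences. Of the other Cyp2j genes, Cyp2j8 had a difference of 0.12 ± 0.19, Cyp2j11 of -0.02 ± 0.10, Cyp2j12 of -0.13 ± 0.14 and Cyp2j13 of -0.13 ± 0.17, and 0 of the 4 were called by limma, also 0 at an unadjusted p under 0.05. All 4 were dim, with means over all arrays under the median of all clusters, 4.35, so a change in them may not be measurable here; no detection call was available. The sign of Cyp2j8, Cyp2j11 and Cyp2j13 turned on leaving out some single arrays. Ephx4, a relative of Ephx3, was dimmer still, at 2.28 ± 0.12 and 2.23 ± 0.11, with a difference of -0.05 ± 0.10. The probes of closely related Cyp2j transcripts can share sequence, and how far one transcript adds to a neighbouring cluster was not tested.

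Together with these relatives, 142 genes of the families and the surrounding pathways were listed, of which 128 were measured. Of these, 0 were called higher and 4 lower in limma's fit over all genes, or 3.12% beside 1.08% of all genes. An unadjusted p under 0.05 was found for 16 of the 128, and for 2424 of all 22180 genes. Of the 128, 50 had means under the median of all clusters, so changes in them may not be measurable here. The median difference over the 128 genes was -0.04, against -0.00268 over all genes. The 4 genes called were Cyb5a, Cyb5b, Fabp1 and Abcc2.

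Microsomal P450 enzymes take electrons from P450 reductase and, for some reactions, from cytochrome b5. Of 8 measured genes listed as P450 electron donors and their relatives, not all of them microsomal donors, 2 fell and 0 rose. Among all genes 0.636% were called lower. The median difference of the list was -0.05. Cyb5a, the cytochrome b5 of the endoplasmic reticulum, read 8.02, 7.96, 7.95 and 7.91 in EV cells and 7.53, 7.66, 7.38 and 7.38 in Zfp125 cells. The groups did not overlap, and Cyb5a fell by 0.47 ± 0.09 (limma, adjusted p = 0.0286). Cyb5b, its relative of the outer mitochondrial membrane, read 8.42, 8.07, 8.23 and 8.29 against 7.70, 7.80, 7.76 and 7.88. It fell by 0.47 ± 0.10 (limma, adjusted p = 0.0359), again with no overlap. The differences stayed between -0.53 and -0.43 for Cyb5a and between -0.53 and -0.41 for Cyb5b when any 1 array was left out. Each call nevertheless ended in 7 of the 8 omissions, and over all settings the adjusted p reached 0.109 for Cyb5a and 0.13 for Cyb5b. Among the omissions, Cyb5a stayed called only without Zfp125 replicate 2 and Cyb5b only without EV replicate 2. With the replicate number as a block both calls also ended. The reductase gene Por is not analysed here.

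Among the other makers of fatty acid epoxides and omega alcohols, 0 were called. Of 14 measured Cyp2c epoxygenase genes, 3 had an unadjusted p under 0.05, and the differences ran from -0.74 to 0.43 with a median of 0.08. Means of 9 of the 14 lay under the median of all clusters, so changes in them may not be measurable here. One of these was Cyp2c69, with an EV mean of 2.22 and a difference of 0.43 ± 0.13 (limma, adjusted p = 0.19). Cyp2c70, a P450 that hydroxylates bile acids in mouse liver, had means of 5.94 ± 0.29 and 5.20 ± 0.32 and a difference of -0.74 ± 0.17 (limma, adjusted p = 0.0528). It passed in 7 of the 18 other settings, among them median centring of the arrays and the replicate block. Cyp2c23, an arachidonate epoxygenase best known from kidney, had a difference of -0.53 ± 0.15 (limma, adjusted p = 0.15) and passed without EV replicate 1, the lowest EV array for it at 4.40. Of 15 measured Cyp4 hydroxylases, 7 had means under that median and 2 had an unadjusted p under 0.05. The lowest difference was -0.23 and the highest 0.31. Cyp4f14, a leukotriene hydroxylase, had 0.28 ± 0.09 (limma, adjusted p = 0.199). Cyp4f37, a dim gene of that subfamily with an EV mean of 3.61, had 0.31 ± 0.14 (limma, adjusted p = 0.423).

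**Figure D3:**
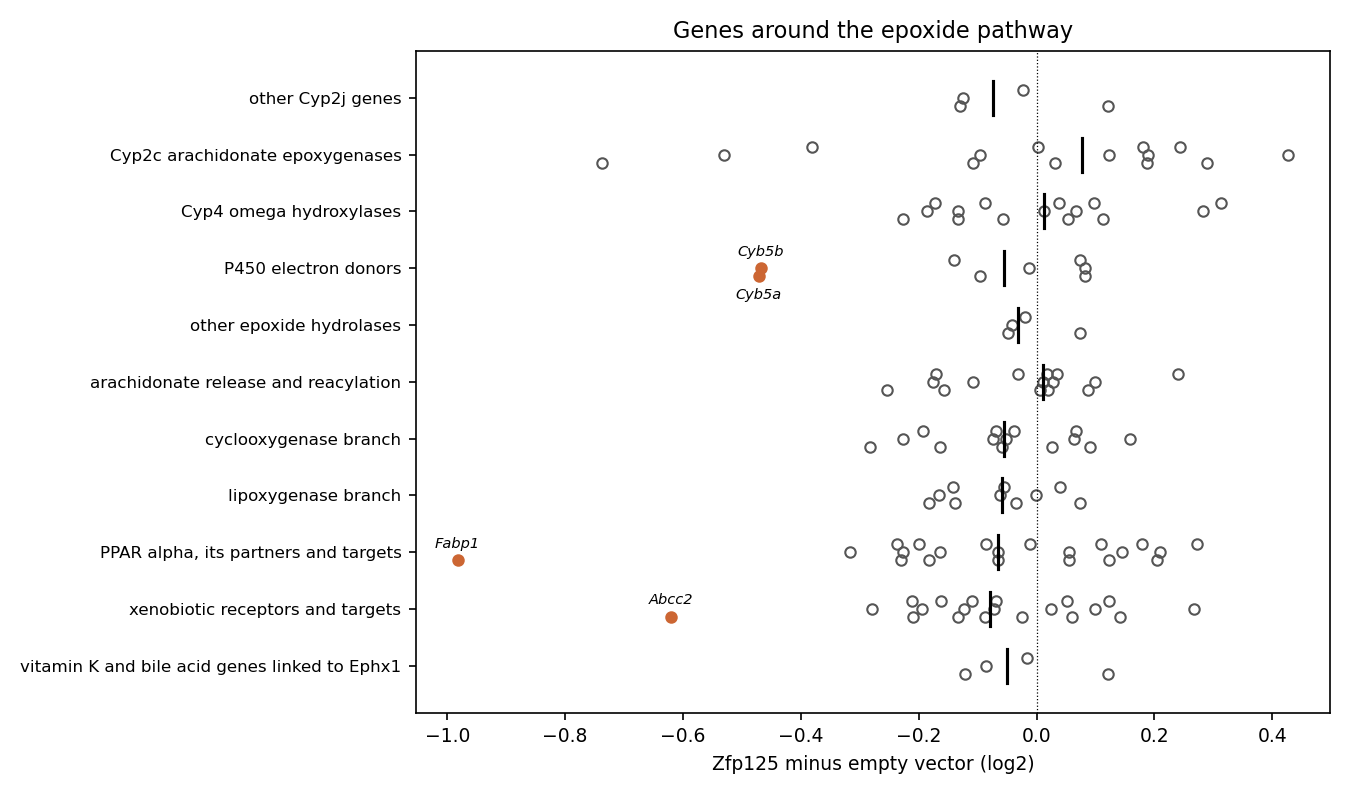
Differences of the measured pathway genes, by list. The horizontal axis is Zfp125 minus EV on the log2 scale, each circle is a gene, filled where it was called by limma over all genes, and the black bar is the median of the list. The 4 filled circles, Cyb5a, Cyb5b, Fabp1 and Abcc2, all lie below 0, and the medians lie between -0.08 and 0.08.

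The steps that supply or compete for arachidonate held no called gene. Of 15 measured genes of its release and return to phospholipid, 2 had an unadjusted p under 0.05. Acsl4, the acyl-CoA synthetase that prefers arachidonate, had a difference of -0.25 ± 0.08 (limma, adjusted p = 0.242), and Lpcat3, which puts arachidonate back into phospholipid, had 0.24 ± 0.10 (limma, adjusted p = 0.374). Of 14 cyclooxygenase branch genes 1 had an unadjusted p under 0.05, the thromboxane synthase Tbxas1 with -0.23 ± 0.09 (limma, adjusted p = 0.339). Ptgs2, the inducible cyclooxygenase, had -0.28 ± 0.14 (limma, adjusted p = 0.497) at a mean of 3.69 ± 0.33 in EV cells, below the median of all clusters. Of 10 lipoxygenase branch genes 0 had an unadjusted p under 0.05, with differences from -0.18 to 0.07. The smallest p belonged to Gpx4, which reduces lipid hydroperoxides, with -0.18 ± 0.09 (limma, adjusted p = 0.46), and to the leukotriene-forming lipoxygenase gene Alox5 with -0.14 ± 0.09 (limma, adjusted p = 0.62). The other epoxide hydrolases, Ephx4, the leukotriene A4 hydrolase gene Lta4h, and Ebp and Dhcr7 of cholesterol epoxide hydrolase, had differences from -0.05 to 0.07, and 0 of 4 had an unadjusted p under 0.05.

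Ephx2 is counted among the targets of PPAR alpha, the fatty acid receptor of hepatocytes, and Ephx1 among those of the xenobiotic receptors CAR and PXR. Of 21 measured genes of the first list, 1 fell, 0 rose and 4 had an unadjusted p under 0.05, with a median of -0.06. This was Fabp1, which carries fatty acids in the hepatocyte cytosol, with 5.65, 5.60, 5.93 and 6.24 in EV cells and 4.81, 4.98, 4.47 and 5.23 in Zfp125 cells, by 0.98 ± 0.17 (limma, adjusted p = 0.0119). The receptor gene Ppara had means of 6.80 ± 0.17 and 6.56 ± 0.24 and a difference of -0.23 ± 0.13 (limma, adjusted p = 0.546), and its lowest array was Zfp125 replicate 3 at 6.23. The other 3 genes of the list with an unadjusted p under 0.05 went both ways. Acot3, a peroxisomal acyl-CoA thioesterase, had -0.32 ± 0.10 (limma, adjusted p = 0.206) with groups that did not overlap. Ehhadh, the bifunctional enzyme of peroxisomal beta oxidation, had -0.24 ± 0.10 (limma, adjusted p = 0.409), and Slc25a20, the mitochondrial carnitine and acylcarnitine carrier, had 0.27 ± 0.12 (limma, adjusted p = 0.406). Of 20 measured genes of the xenobiotic list, 1 fell, the bile canalicular export pump Abcc2 by 0.62 ± 0.11 (limma, adjusted p = 0.0178), and 0 rose. Means of 11 of the 20 lay under the median of all clusters. The call of Abcc2 ended in 5 of 8 omissions of 1 array, those of EV replicate 1, 3 or 4 and Zfp125 replicate 1 or 2. The PXR gene Nr1i2 and the CAR gene Nr1i3, picked after their values were seen, had -0.16 ± 0.09 and -0.07 ± 0.09. Of 4 vitamin K and bile acid genes linked to Ephx1, 0 were called and 0 had an unadjusted p under 0.05, with Slc10a1, the bile acid importer, at -0.12 ± 0.12 and Vkorc1l1, a relative of vitamin K epoxide reductase, at 0.12 ± 0.14.

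Genes next to the 6 on their chromosomes were compared in the same way. The 4 nearest measured genes on each side of each of the 6 genes, by order in the GRCm38.p6 gene table, came to 32 genes outside the 6. Of these, 0 were called by limma and 6 had an unadjusted p under 0.05, beside 2424 of all 22180 genes. Differences of the 32 genes ran from -0.49 to 0.34, with a median of -0.02. Beyond Cyp2j5 lay Gm12695 (-0.10 ± 0.11), E130114P18Rik (-0.01 ± 0.11) and the transcription factor gene Nfia (-0.02 ± 0.10). Gm12695 and E130114P18Rik were dim, with EV means of 3.14 and 2.93, under the median of all clusters. A change in such dim neighbours may not be measurable here. Beside Ephx2, Chrna2, a nicotinic receptor subunit gene, had -0.14 ± 0.09, the kinase gene Ptk2b 0.25 ± 0.10, and Clu, which encodes the secreted chaperone clusterin, 0.26 ± 0.08. The other neighbours of Ephx2 were 1700001G11Rik (0.34 ± 0.13), Trim35 (0.24 ± 0.09), Scara3 (0.07 ± 0.11), Gulo (-0.05 ± 0.16) and Adam2 (-0.04 ± 0.09). Chrna2 and Adam2 were also dim, with EV means of 3.53 and 2.79. Ptk2b, Clu, 1700001G11Rik and Trim35 were each higher with an unadjusted p under 0.05. Clu was called with a trended, robust prior (adjusted p = 0.00831), where it was higher, opposite to Ephx2. The largest neighbour difference was that of Lefty2, a secreted signalling factor gene near Ephx1, at -0.49 ± 0.14 (limma, adjusted p = 0.14). Near Ephx3, Hsf2bp had -0.30 ± 0.09 (limma, adjusted p = 0.201) with groups that did not overlap. Lefty2 and Hsf2bp were each lower with an unadjusted p under 0.05.

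**Figure D4:**
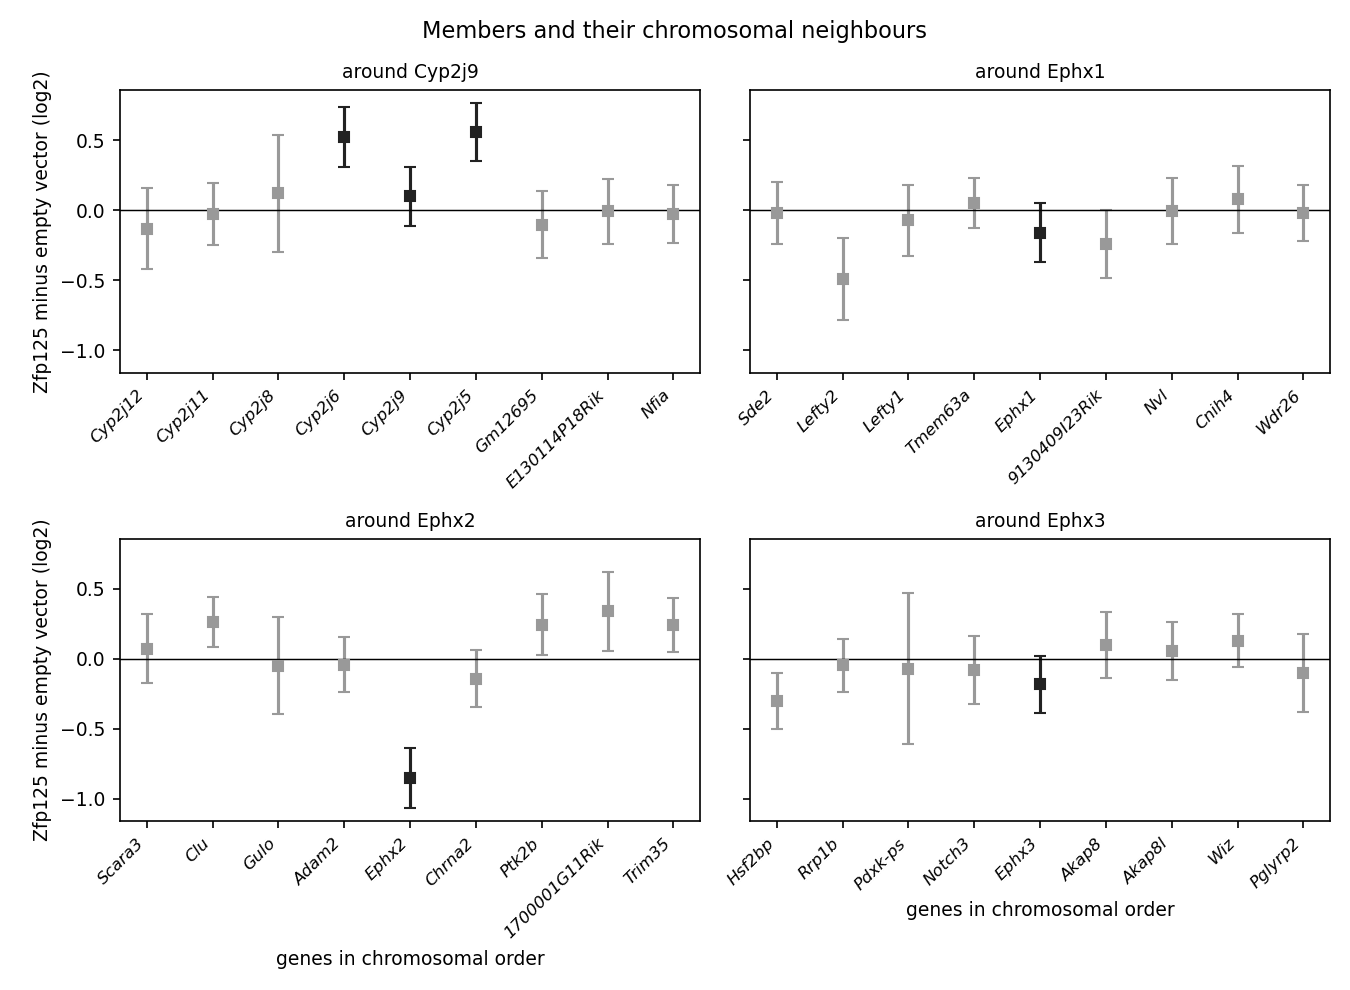
Differences along the chromosome around Cyp2j9, Ephx1, Ephx2 and Ephx3. The vertical axis is Zfp125 minus EV on the log2 scale with 95% intervals, and the horizontal axis gives the measured genes in chromosomal order, evenly spaced, with the 6 genes described in black and their neighbours in grey. Cyp2j6 and Cyp2j5 stand above Cyp2j9 between them, and Ephx2 stands below all 8 of its neighbours.

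As a check of the cells, all 7 measured hepatocyte markers had means above the median of all clusters. Of the 7, 4 fell in Zfp125 cells and 0 rose, beside 0.636% of all genes called lower, and the median difference of the list was -0.48. Those that fell were the tyrosine aminotransferase Tat by 1.46 ± 0.16, the antitrypsin gene Serpina1c by 0.67 ± 0.12, the apolipoprotein Apoa1 by 0.61 ± 0.13 and albumin, Alb, by 0.48 ± 0.09. Hnf4a, a transcription factor of hepatocytes, had -0.38 ± 0.09, Apob -0.07 ± 0.09 and Ttr 0.08 ± 0.10, and these 3 were not called. For Hnf4a the groups did not overlap (limma, adjusted p = 0.0562). The mean level over the 7 markers was 9.85 to 10.16 on EV arrays and 9.42 to 9.61 on Zfp125 arrays. Lists of macrophage, endothelial and stellate or fibroblast markers had mean levels of 4.05 to 4.82 on all arrays, and 0 of their 17 genes were called. Means above the median of all clusters were seen for 4 of 6, 2 of 5 and 4 of 6 of these genes, in that order. These lists were thus not all dim. Of 5 cholangiocyte markers 0 were called, but Sox9 and Krt19 were bright, with EV means of 9.75 and 8.15, and Epcam was dim at 2.73. The median difference of these markers was 0.03. Sox9 had 0.28 ± 0.09 with groups that did not overlap (limma, adjusted p = 0.204), and Krt19 had -0.14 ± 0.11. The part of the lower hepatocyte markers in the difference of Ephx2 was not tested, and in bulk RNA fewer cells with a transcript and less transcript per cell cannot be told apart. Array medians lay between 4.32 and 4.37, correlations between arrays between 0.977 and 0.984, and the median SD over genes was 0.15 in EV and 0.132 in Zfp125 cells.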

How the data were processed

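The deposited table holds log2 expression values, 1 per transcript cluster and array. Per the submitters' processing notes, they come from Affymetrix Expression Console and Transcriptome Analysis Console. The background correction, normalization and build were not given in the sources used here. That the values are log2 was read from their range. No array was normalized again for the reported values.

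Clusters were named through the platform annotation: 23521 carried 1 symbol, 1814 several and 16010 none here. Entrez identifiers updated the symbols through the GRCm38.p6 RefSeq table, which held 23328 of the 23521. For 1082 genes with several clusters the brightest was used. Group differences were fitted with limma 3.58.1 (lmFit, eBayes; R 4.3.3) over 22180 genes, two-sided, with Benjamini-Hochberg adjustment and a threshold of 0.05. The fit was tested on simulated data. The number of arrays limits the precision.

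Replicate numbers come from the titles. Deviations from the group means correlated between same-numbered arrays at -0.05, -0.05, 0.04 and -0.01, and between other pairs at -0.06 to 0.09. Same-numbered arrays thus showed no shared deviation, so the main fit has no pairing. These values cannot tell whether such arrays were handled together.

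The 6 genes and the lists were chosen with earlier results of these data known. Named are the 6 genes, all other measured Cyp2j genes, each called gene of a list or else the 2 with the smallest p, Ppara, and the 3 genes nearest in pattern to each called member. Other genes were chosen after their values were seen: Cyp2c69, Lta4h, Dhcr7, Acot3, Ehhadh, Slc25a20, Nr1i2, Nr1i3, Gm12695, E130114P18Rik, Nfia, Chrna2, Ptk2b, Clu, 1700001G11Rik, Trim35, Scara3, Gulo, Adam2, Lefty2, Hsf2bp and the cell markers. Alternatives covered normalization, filters, variance moderation, array weights, cluster choice, the replicate block and leaving out each array. Promoter sequences are from RefSeq (5 of the 6 genes matched; Ephx2 was not). Plots used matplotlib 3.10.9.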

Additional observations from a re-analysis of the deposited data

Results flagged for a closer look

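Ebp, a subunit of cholesterol epoxide hydrolase, had 1 EV array that stood apart from the other 3: replicate 2 read 9.41, and the others lay between 9.51 and 9.52. It was the only one of 58 groups of 4 arrays examined in which an array stood that far apart, and chance alone flags about 1 in 20 groups. The cause was not tested.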

How the results depend on the processing

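The differences of the 6 genes kept their sign in all 18 alternatives and moved in each by less than the SD between replicates pooled over both groups. The count of called genes, 240, became 405 among genes above the median level, 498 with a trended, robust prior, 26 without variance moderation, 61 over all clusters of the table and 152 with the replicate block, and 109 to 187 with 1 array left out. Of the 6 genes 3 were called, 0 without moderation and 1, Ephx2, over all clusters, 2 with the replicate block, where Cyp2j6 was not called, and 1 to 3 with 1 array left out, lowest without Zfp125 replicate 1. Of the pathway genes 4 were called, 0 without moderation and 0 over all clusters, and 1 to 3 with 1 array left out. The count was 3 with the replicate block. It was 1 without EV replicate 3 or 4 or Zfp125 replicate 1, and 2 without Zfp125 replicate 2 or 3. The fit over all clusters tested 41345 features against 22180 genes in the main fit. The causes of these changes in the counts were not tested. Of the chromosomal neighbours 0 were called, 0 with any 1 array left out, and 1, Clu, with a trended, robust prior; this count was added after seeing the data. Among genes near 0 and never called, the sign turned on leaving out some arrays, with ranges over the omissions of -0.0924 to 0.0427 for Cyp2j11, -0.296 to 0.0304 for Cyp2j13, -0.0464 to 0.244 for Cyp2j8, -0.0909 to 0.0113 for Ephx4 and -0.0171 to 0.203 for Vkorc1l1. Signals near background limit what can be seen of the dim Cyp2j genes.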
